A study of Homo sapiens with 12 samples.

Results

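Glycolysis is the cytosolic pathway that splits glucose into pyruvate, and its genes share part of their control with the cellular response to low oxygen. The 42 genes described here are 24 that carry glucose from uptake to the fate of pyruvate and 18 of the hypoxia response. They were taken from a list of names, and each was represented by 1 probe set of the array. That probe set was one without the suffix _x_at, which marks possible cross-hybridisation, where there was a choice, and the one with the highest mean over 12 arrays. For 41 of the 42 genes the gene table used here named a probe set, and 39 of these passed the filter on low values, out of 10626 genes tested. CA9 was not analysed here, and PFKFB4 and ALDOC lay below the filter. GAPDH, ALDOA and LDHB were represented by _x_at probe sets. The gene listed under its older symbol ERO1LB is called ERO1B.

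The cells were HK-2, an immortalised human cell line from the renal proximal tubule, grown in a medium of 5 mM glucose with insulin, EGF, hydrocortisone, transferrin and selenite. The 4 groups were cells given Di for 12 h, control cells given the vehicle for 12 h, cells given Di for 48 h and control cells given the vehicle for 48 h. Each group had 3 arrays labelled as biological replicates, and treatment began 24 h after seeding, at about 90% confluence. Neither the identity nor the dose of Di, nor the vehicle, is given in the sources used here. The name of the line is close to that of the gene HK2, hexokinase 2. Below, HK-2 is always the cell line and HK2 always the gene.

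In glycolysis, glucose enters through transporters such as SLC2A1 (GLUT1), is trapped by hexokinases and is converted by a chain of enzymes into pyruvate. Pyruvate is then reduced to lactate or oxidised in mitochondria, and pyruvate dehydrogenase kinases such as PDK1 close the mitochondrial route. The hypoxia-inducible factors pair an alpha subunit, HIF1A or EPAS1 (HIF-2 alpha), with ARNT. With oxygen present, prolyl hydroxylases of the EGLN family mark the alpha protein for destruction, so that control acts largely on the protein and not on its mRNA. The stabilised factor binds the core letters ACGTG or GCGTG near genes for glucose uptake, glycolysis, angiogenesis and mitophagy. In the kidney, tubular cells are known to express HIF1A, whereas EPAS1 is known mainly from interstitial and endothelial cells.

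Promoter sequences are shown for the members that the comparisons turn on and for which the RefSeq table (GRCh38.p14) held an entry. The window runs from 250 bases before to 50 bases after an annotated start, 300 bases in all, printed 5′ to 3′ on the strand of the gene. Capitals mark each ACGTG or GCGTG on either strand, with overlapping matches merged, so that CACGTG is marked once. SLC2A1, ADM and P4HA2 are shown because they were among the members that changed most at 48 h, and HK2 because all its probe sets are described. BNIP3 and ANKRD37 are shown as hypoxia-response genes that did not pass the test for Di at either time. The SLC2A1 window is chr1:42958819-42959118 (minus strand), the ADM window chr11:10304823-10305122 (plus), the P4HA2 window chr5:132227042-132227341 (minus), the HK2 window chr2:74833877-74834176 (plus), the BNIP3 window chr10:131981874-131982173 (minus) and the ANKRD37 window chr4:185396591-185396890 (plus).
SLC2A1: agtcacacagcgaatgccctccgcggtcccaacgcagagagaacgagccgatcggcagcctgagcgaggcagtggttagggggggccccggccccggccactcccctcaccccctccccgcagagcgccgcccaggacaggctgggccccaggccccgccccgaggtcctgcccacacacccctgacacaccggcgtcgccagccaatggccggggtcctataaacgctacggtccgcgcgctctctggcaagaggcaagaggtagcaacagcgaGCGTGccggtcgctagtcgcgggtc
ADM: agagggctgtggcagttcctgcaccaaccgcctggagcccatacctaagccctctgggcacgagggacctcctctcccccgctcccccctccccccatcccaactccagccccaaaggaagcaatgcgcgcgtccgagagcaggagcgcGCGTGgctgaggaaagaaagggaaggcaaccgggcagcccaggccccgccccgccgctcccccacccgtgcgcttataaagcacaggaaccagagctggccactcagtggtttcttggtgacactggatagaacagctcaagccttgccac
P4HA2: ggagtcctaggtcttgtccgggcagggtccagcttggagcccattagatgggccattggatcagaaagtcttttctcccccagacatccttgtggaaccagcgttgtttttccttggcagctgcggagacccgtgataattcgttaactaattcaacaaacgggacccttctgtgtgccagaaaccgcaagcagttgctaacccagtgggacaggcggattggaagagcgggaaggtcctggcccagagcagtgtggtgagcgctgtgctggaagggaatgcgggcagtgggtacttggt
HK2: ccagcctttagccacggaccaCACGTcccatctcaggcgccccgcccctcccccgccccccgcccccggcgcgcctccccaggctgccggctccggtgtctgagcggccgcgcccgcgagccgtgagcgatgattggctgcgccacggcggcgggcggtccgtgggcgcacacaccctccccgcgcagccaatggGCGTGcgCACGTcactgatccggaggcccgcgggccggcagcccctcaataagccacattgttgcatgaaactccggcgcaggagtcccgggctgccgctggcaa
BNIP3: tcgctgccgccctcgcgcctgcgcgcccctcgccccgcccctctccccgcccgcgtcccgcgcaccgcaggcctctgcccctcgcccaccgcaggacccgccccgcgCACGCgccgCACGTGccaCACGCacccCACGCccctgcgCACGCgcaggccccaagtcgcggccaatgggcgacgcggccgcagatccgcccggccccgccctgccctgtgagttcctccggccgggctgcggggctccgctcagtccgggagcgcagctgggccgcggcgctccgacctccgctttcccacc
ANKRD37: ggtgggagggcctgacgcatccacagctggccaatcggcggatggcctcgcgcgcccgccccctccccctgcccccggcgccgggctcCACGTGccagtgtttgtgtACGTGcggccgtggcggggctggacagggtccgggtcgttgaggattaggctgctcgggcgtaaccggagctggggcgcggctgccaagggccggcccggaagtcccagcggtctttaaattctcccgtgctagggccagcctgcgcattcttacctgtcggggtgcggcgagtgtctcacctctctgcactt

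The SLC2A1 window held 1 match, whose first base lay at position 25 from the start, and the ADM window held 1 match, at position -101. The P4HA2 window held none, which says only that these letters are not in this window. The HK2 window held 3 matches, the BNIP3 window 5 and the ANKRD37 window 2. Of all 35116 promoters in the table, 21.4% held ACGTG and 48.4% held ACGTG or GCGTG. Of 64 promoters of 37 member genes, 26 held ACGTG (40.6%) and 45 held either (70.3%). At least 1 promoter with ACGTG was found for 5 of 11 members that were higher with Di at 48 h, for 5 of 7 that were lower and for 9 of 16 that were not called, leaving aside promoters of the members not tested. Genes differ in their number of promoters, so these counts per gene are not set against the shares per promoter. Per promoter, ACGTG was held by 6 of 17 for the higher members, 6 of 17 for the lower and 12 of 27 for those not called. A match is a description of the sequence and not of binding.

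The deposited values are log2 expression, computed by the authors with GCRMA. A level is a value on that scale, and levels of different probe sets are not set against each other. Array medians lay between 2.967 and 3.06, and arrays of the same group correlated at 0.995 to 0.998 (Pearson, across probe sets). Deviations from the group mean over all genes had a root mean square of 0.252 for the second Di array at 12 h, against 0.111 to 0.182 for the other arrays. For ACTB the 3′ probe set exceeded the 5′ one, a measure of RNA integrity, at 12 h by 1.22 ± 0.239 with Di and 1.71 ± 0.178 in control cells (SD, n = 3 each; exact permutation p = 0.1, two-sided, the smallest this design allows). At 48 h it did so by 1.41 ± 0.0776 with Di and 1.33 ± 0.128 in control cells (exact permutation p = 0.5). For GAPDH the same gap at 12 h was 0.05 ± 0.0994 with Di and 0.13 ± 0.0841 in control cells (exact permutation p = 0.3). At 48 h the GAPDH gap was -0.03 ± 0.0396 with Di and 0.00 ± 0.0206 in control cells (exact permutation p = 0.2). Of 8 epithelial markers 7 lay above a log2 level of 4 in every group, while 0 of 12 measured genes of proximal tubule function did so in any group. Of 4 measured markers of other nephron segments, only AQP2 lay above 4, in every group, with means of 4.92 to 5.07. Of 7 fibroblast markers, COL1A1, DCN and LUM lay above 4 in every group and COL1A2, COL3A1, PDGFRA and PDGFRB in none. The summed fibroblast level was 33.5 to 34.6 with Di and 35.8 to 36.1 in control cells at 48 h. The summed epithelial level was 71.6 to 72.6 with Di and 75.5 to 75.9 in control cells at 48 h, but its markers did not move together. KRT19 (10.23 against 11.42), EPCAM (12.40 against 13.05), CDH1 (6.74 against 8.07) and CDH2 (8.13 against 9.11) averaged lower with Di at 48 h. KRT8 (10.68 against 10.55), KRT18 (12.41 against 12.21) and PAX8 (9.73 against 9.34) averaged higher. The part of RNA integrity or of these markers in the results below was not tested. In such bulk samples fewer cells of a type and less RNA per cell cannot be told apart.

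At 12 h, 4 of the 39 members changed with Di, which is 10.3% against 13.7% of all genes tested (3.90% higher and 9.78% lower). The balance of directions turned when arrays were centred on the median of the tested genes, to 735 genes higher and 618 lower and 2 members each way. The glucose transporter SLC2A1 rose, and NDRG1, EGLN1 and KDM3A fell. Without Di array 3 or any 1 of the control arrays at 12 h, 1 member was called, and without Di array 2 at 12 h or control array 1 at 48 h, 2 were. None of the 4 changed by as much as 2-fold, and 0.348% of all genes did. The median log2 change of the members was -0.064, against -0.061 over all genes tested. Of the 12 enzymes of upper and lower glycolysis, 0 were called at 12 h, by limma with adjusted p under 0.05 over all genes. The same 12 had 0 with an unadjusted p under 0.05. Their changes ran from -0.22 for ENO2 to 0.09 for ALDOA.

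At 48 h, 22 of the 39 members changed with Di, 14 higher and 8 lower. That is 56.4%, against 50.9% of all genes tested. For the higher members the share was 35.9%, against 22.9% of all genes, and for the lower members 20.5%, against 28.0%. The median log2 change was 0.041 over the members and -0.019 over all genes. The members that rose by at least 2-fold were ADM, NDRG1, SLC2A1 and P4HA2. These 4 are 10.3% of the members, where 4.34% of all genes rose and 12.4% rose or fell by at least 2-fold. The members thus did not move as a block. SLC2A1, SLC2A3, HK2, PFKP, PDK1 and several hypoxia-response genes rose, while TPI1, both lactate dehydrogenase genes, PDK3, CA12 and MXI1 fell.

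**Figure D1:**
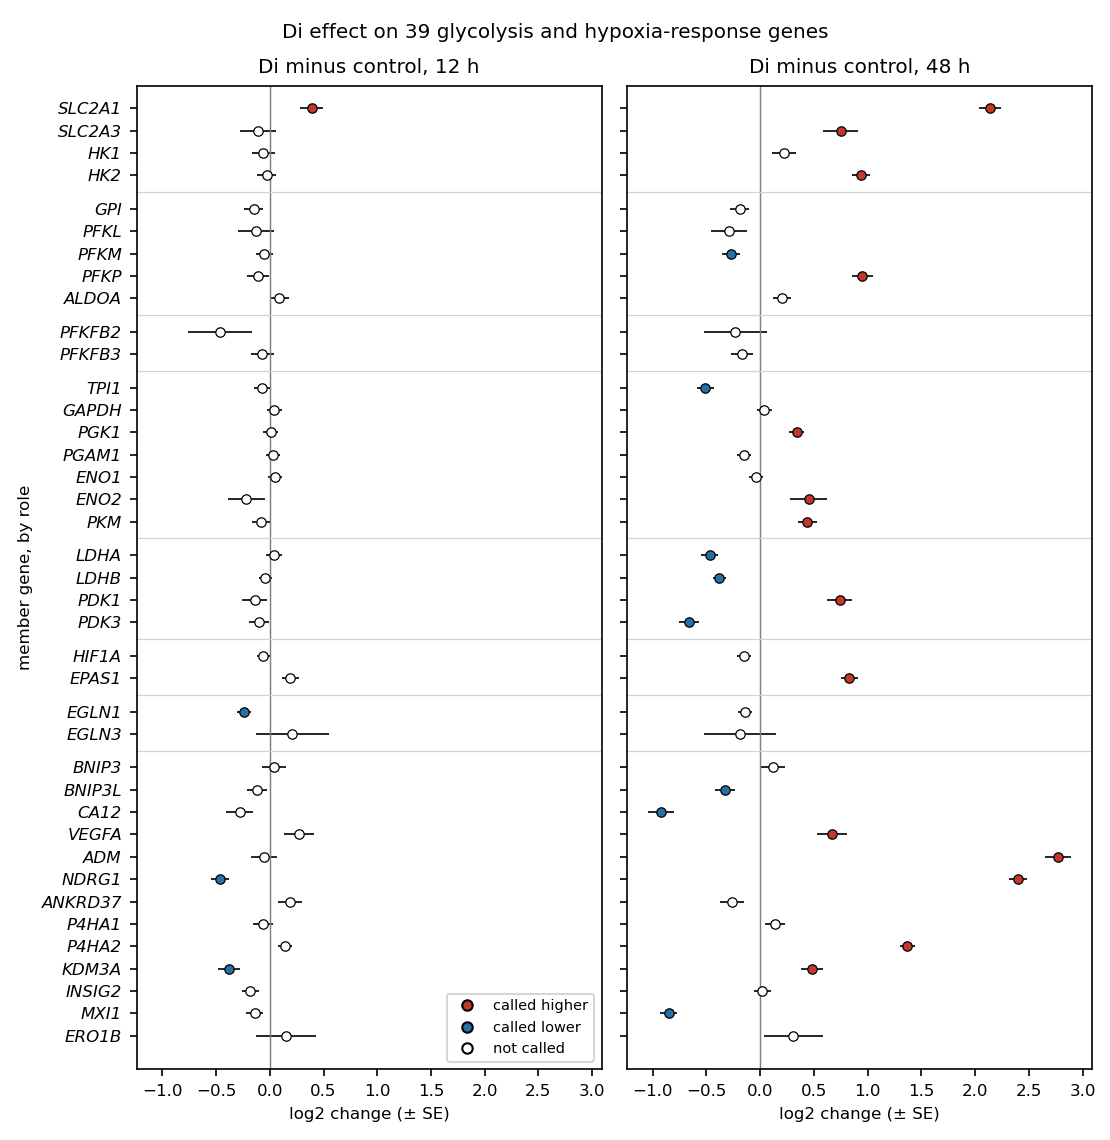
Log2 change with Di (Di minus control, ± SE of the limma fit) at 12 h (left) and 48 h (right) for 39 member genes grouped by role from glucose uptake at the top to hypoxia-response genes at the bottom. Red points were called higher, blue points lower and white points not called; ADM, NDRG1, SLC2A1 and P4HA2 stand out to the right at 48 h, and at 12 h the points lie near 0.

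Glucose uptake and phosphorylation held 4 members, of which 3 rose at 48 h (75.0%, against 22.9% of all genes tested). The median log2 change of the 4 was 0.84. SLC2A1 encodes GLUT1, the widely expressed basal glucose transporter. At 12 h its levels were 7.31, 7.65 and 7.44 with Di, against 7.08, 7.05 and 7.10 in control cells. All Di arrays lay above all control arrays, and the log2 change was 0.39 ± 0.105 (SE; limma adjusted p = 0.0331). That call was lost in 9 of 21 alternatives, among them leaving out Di array 2 (0.30, limma adjusted p = 0.0795), Di array 3 or any of the control arrays at 12 h. At 48 h the levels were 9.34, 9.14 and 9.13 with Di, against 7.06, 6.91 and 7.22 in control cells. The arrays did not overlap, and SLC2A1 was 4.42-fold higher (log2 change 2.14 ± 0.105, limma adjusted p = 2.88e-08). The effect of Di thus differed between the times by 1.75 (limma adjusted p = 6.19e-06), and control levels at 48 h and 12 h differed by -0.02 (limma adjusted p = 0.91).

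SLC2A3 encodes GLUT3, a transporter of high affinity for glucose. It averaged 8.83 ± 0.0228 with Di and 8.08 ± 0.0877 in control cells at 48 h (SD, n = 3 each), a log2 change of 0.75 (limma adjusted p = 0.00277). At 12 h its named probe set gave -0.11 and was not called, with Di array 2 at 7.34 and the other Di arrays at 8.09 and 8.10. The other kept probe sets of SLC2A3, 202497_x_at and 202498_s_at, were called higher at 12 h, at 0.41 and 0.55, and again at 48 h, at 0.94 and 0.87. The probe sets of SLC2A3 therefore did not give the same call at 12 h, and they did at 48 h.

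HK2 is the inducible hexokinase, which binds mitochondria and traps glucose as glucose 6-phosphate. Its probe set 202934_at had levels of 9.17, 9.25 and 9.27 with Di, against 8.28, 8.34 and 8.26 in control cells at 48 h. At 12 h the levels were 8.01, 7.68 and 7.90 with Di, against 7.81, 7.96 and 7.92 in control cells. The groups were apart at 48 h and overlapped at 12 h. The log2 change at 48 h was 0.94 ± 0.0855 (1.91-fold, limma adjusted p = 3.96e-06), and at 12 h it was -0.03 (limma adjusted p = 0.822).

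HK2 had 3 kept probe sets, and the other two lay near the low end of the scale. Probe set 222305_at had 5.19, 5.08 and 4.95 with Di, against 4.88, 4.93 and 5.07 in control cells at 48 h. At 12 h it had 4.87, 5.68 and 4.94 with Di, against 4.93, 5.13 and 4.87 in control cells. The groups overlapped at both times, and the log2 change at 48 h was 0.11 (limma adjusted p = 0.651, over all probe sets). Probe set 239410_at had 4.91, 4.68 and 4.83 with Di, against 4.36, 4.79 and 4.63 in control cells at 48 h. At 12 h it had 4.93, 4.67 and 4.61 with Di, against 4.98, 4.66 and 4.61 in control cells. Here too the groups overlapped at both times, with a log2 change of 0.21 at 48 h (limma adjusted p = 0.232). The rise of HK2 thus rests on 1 of its 3 probe sets, the brightest, and with the mean of all 3 it was 0.42 (limma adjusted p = 0.000619). HK1, the constitutive hexokinase, averaged 9.69 ± 0.131 with Di and 9.48 ± 0.113 in control cells at 48 h (log2 change 0.22, limma adjusted p = 0.12).

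**Figure D2:**
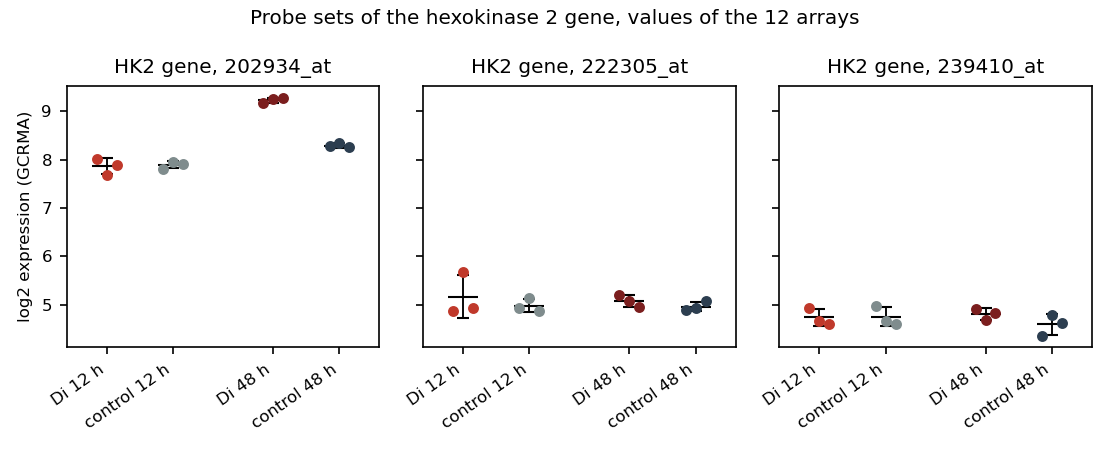
Log2 expression (GCRMA) of the 3 kept probe sets of the hexokinase 2 gene in the 12 arrays, in the order Di and control at 12 h and Di and control at 48 h; points are arrays, bars the mean and SD of 3. Probe set 202934_at lies at 9.17 to 9.27 with Di at 48 h, against 8.26 to 8.34 in control cells, while the other probe sets overlap near 5.

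Upper glycolysis, from glucose 6-phosphate to the triose phosphates, had 1 member higher and 1 lower of 5 measured at 48 h. Each is 20.0%, against 22.9% of all genes tested higher and 28.0% lower. PFKP, the platelet type of the committing enzyme phosphofructokinase, averaged 10.53 ± 0.126 with Di and 9.57 ± 0.0846 in control cells (log2 change 0.95, limma adjusted p = 1.23e-05). Its other kept probe set, 240202_x_at, gave 0.08 and was not called, and the mean of both gave 0.52 (limma adjusted p = 0.000109). PFKM, the muscle type, fell by 0.27 (limma adjusted p = 0.0168), a call that was lost without Di array 2 or 3 or control array 3 at 48 h (limma adjusted p = 0.0509, 0.0612 and 0.0615). PFKL, the liver type, had a change of -0.29 that was not called, while its other probe set 211065_x_at was called lower at both times, at -0.37 and -0.69. GPI, which isomerises glucose 6-phosphate, and ALDOA, the aldolase, were not called, at -0.19 and 0.20. The ALDOA probe set 238996_x_at was called higher, at 0.37 (limma adjusted p = 0.0406), as was the mean of its kept probe sets, at 0.27 (limma adjusted p = 0.00341), and 5 of 21 alternatives in all called ALDOA.

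The bifunctional enzymes of the PFKFB family set the level of fructose 2,6-bisphosphate, the activator of phosphofructokinase. PFKFB3 had 9.25 with Di and 9.32 in control cells at 12 h, and 8.90 with Di and 9.07 in control cells at 48 h, and it was called at neither time. For PFKFB2 the named probe set 226733_at gave -0.23 at 48 h and was not called, with Di arrays spread from 5.35 to 6.45. Its probe set 209992_at was called at least 1.78-fold higher (limma adjusted p = 0.0088), its control mean lying under the floor of 4, so the probe sets of PFKFB2 differed in sign. PFKFB4 reached no more than 3.92 on any array.

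Lower glycolysis, which yields ATP, had 3 members higher and 1 lower of 7 at 48 h, with a median log2 change of 0.041. The shares were 42.9% higher and 14.3% lower, against 22.9% and 28.0% of all genes tested. PGK1, the first ATP-making enzyme of the pathway, averaged 13.28 ± 0.0188 with Di and 12.94 ± 0.0236 in control cells (log2 change 0.34, limma adjusted p = 0.00162). Of its 4 other kept probe sets 3 were also called higher, at 0.39 to 0.57, and the other gave 0.25, not called. PKM, the pyruvate kinase of the last step, averaged 11.61 ± 0.11 with Di and 11.17 ± 0.111 in control cells (log2 change 0.44, limma adjusted p = 0.00115), and its probe set 213700_s_at gave 1.43. ENO2, the neuronal enolase, was called at 0.45 (limma adjusted p = 0.0483), and that call was lost in 12 of 21 alternatives, among them leaving out any 1 of the 48 h arrays (limma adjusted p 0.0621 to 0.144). TPI1, which interconverts the triose phosphates, averaged 11.38 ± 0.0749 with Di and 11.89 ± 0.0889 in control cells and fell by 0.51 (limma adjusted p = 0.000247). GAPDH, ENO1 and PGAM1 were not called at 48 h, at 0.04, -0.04 and -0.15.

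All 4 members at the fate of pyruvate were called at 48 h, 1 higher and 3 lower. The shares were 25.0% higher and 75.0% lower, against 22.9% and 28.0% of all genes tested. LDHA and LDHB encode the subunits of lactate dehydrogenase, which interconverts pyruvate and lactate. LDHA averaged 13.33 ± 0.127 with Di and 13.79 ± 0.0709 in control cells (log2 change -0.47, limma adjusted p = 0.0004). LDHB averaged 14.44 ± 0.0759 with Di and 14.82 ± 0.0481 in control cells (log2 change -0.38, limma adjusted p = 0.000377). The pyruvate dehydrogenase kinases went opposite ways. PDK1, a known HIF1A target, averaged 8.52 ± 0.1 with Di and 7.78 ± 0.216 in control cells and rose by 0.74 (limma adjusted p = 0.000301). PDK3 averaged 8.18 ± 0.113 with Di and 8.83 ± 0.0763 in control cells and fell by 0.66 (limma adjusted p = 0.000148), and of its 3 other kept probe sets 1 was called lower, at -1.11, with the others at -0.40 and -0.10. At 12 h none of these 4 was called on its named probe set, while the PDK1 probe set 206686_at was called at least 1.35-fold higher, with all its control arrays under the floor of 4.

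**Figure D3:**
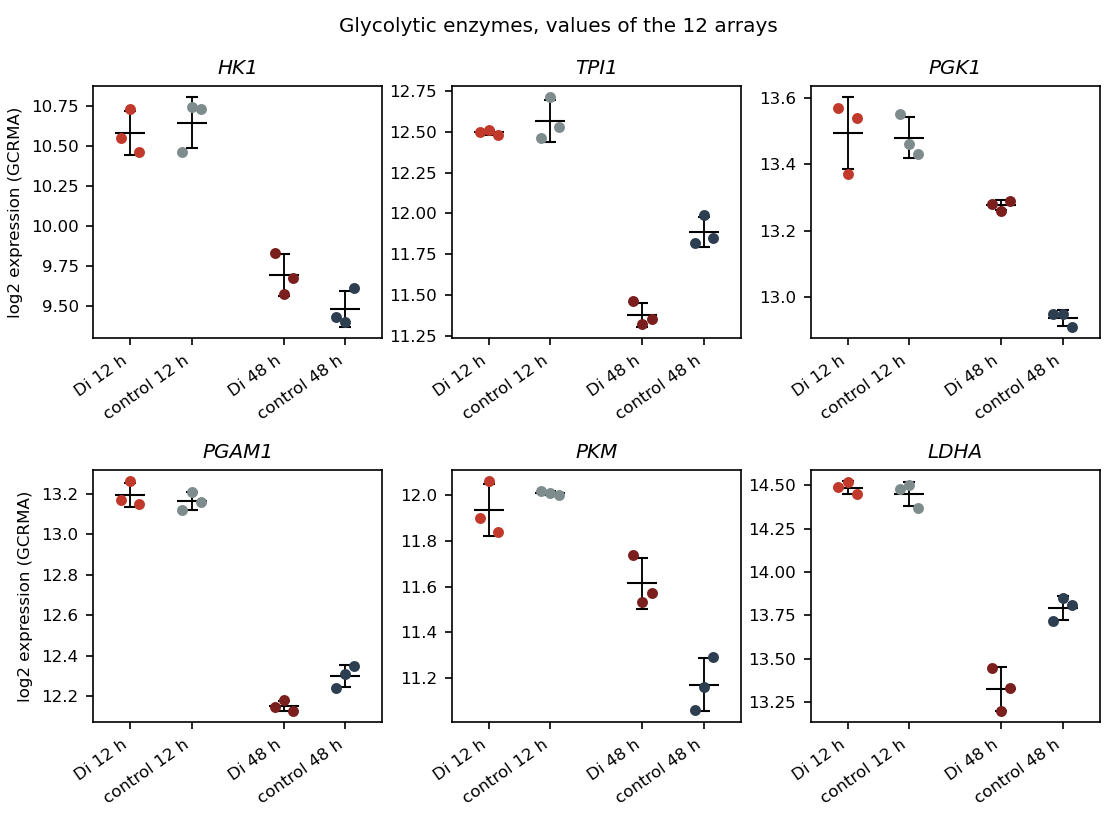
Log2 expression (GCRMA) of HK1, TPI1, PGK1, PGAM1, PKM and LDHA in the 12 arrays, with Di left of control at each time; points are arrays, bars the mean and SD of 3. Control levels of all 6 were lower at 48 h than at 12 h, and at 48 h PGK1 and PKM lie higher with Di while TPI1 and LDHA lie lower.

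Among the HIF alpha subunits, EPAS1 rose at 48 h and HIF1A was not called. EPAS1 had 12.58, 12.56 and 12.61 with Di, against 11.74, 11.85 and 11.70 in control cells at 48 h. At 12 h it had 11.05, 10.89 and 11.05 with Di, against 10.80, 10.69 and 10.94 in control cells. The groups were apart at 48 h and overlapped at 12 h, where the log2 change was 0.19 (limma adjusted p = 0.142). At 48 h it was 0.83 ± 0.0796 (1.77-fold, limma adjusted p = 6.15e-06). The other EPAS1 probe set, 200879_s_at, was called higher at both times, at least 1.67-fold at 12 h, where its control arrays lay under the floor of 4, and at a log2 change of 1.37 at 48 h. HIF1A had 13.90, 13.83 and 13.98 with Di, against 14.05, 14.09 and 14.03 in control cells at 48 h. At 12 h it had 14.09, 13.99 and 14.05 with Di, against 14.09, 14.14 and 14.08 in control cells. The arrays were apart at 48 h by a small margin, with a log2 change of -0.15 ± 0.0628 (limma adjusted p = 0.0665). In 3 of 21 alternatives HIF1A was called lower at 48 h, among them leaving out Di array 3 (-0.19, limma adjusted p = 0.0422). At 12 h the arrays overlapped, and the change was -0.06 (limma adjusted p = 0.531).

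The prolyl hydroxylases EGLN1 (PHD2) and EGLN3 (PHD3) mark HIF alpha for destruction. EGLN1 had 10.56, 10.50 and 10.51 with Di, against 10.75, 10.78 and 10.75 in control cells at 12 h. These groups were apart, and the log2 change was -0.24 ± 0.0642 (limma adjusted p = 0.0331). Leaving out any 1 of the arrays at 12 h ended that call, and centring the arrays on the median of the tested genes gave -0.15 (limma adjusted p = 0.214). At 48 h EGLN1 had 10.28, 10.34 and 10.15 with Di, against 10.38, 10.45 and 10.37 in control cells. The change then was -0.14 and was not called, while its probe set 221497_x_at gave 0.32 and was called higher, so the probe sets of EGLN1 differed in sign at 48 h. EGLN3 was below a log2 level of 4 on all 6 arrays at 48 h, and at 12 h it averaged 5.36 ± 0.731 with Di and 5.16 ± 0.295 in control cells, which was not called.

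Of the 13 hypoxia-response genes measured beside these, 5 rose and 3 fell at 48 h, with a median log2 change of 0.14. The shares were 38.5% higher and 23.1% lower, against 22.9% and 28.0% of all genes tested. ADM encodes adrenomedullin, a vasodilator peptide. At 48 h its levels were 9.35, 9.49 and 9.18 with Di, against 6.61, 6.62 and 6.46 in control cells. At 12 h they were 6.86, 6.87 and 7.04 with Di, against 6.96, 6.75 and 7.22 in control cells. The groups overlapped at 12 h and were far apart at 48 h, where ADM was 6.84-fold higher (log2 change 2.77 ± 0.121, limma adjusted p = 1.16e-08), the largest rise among the members.

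NDRG1, a stress-response gene induced by hypoxia and also by other stresses, changed in opposite directions at the 2 times. At 12 h its levels were 7.41, 7.61 and 7.66 with Di, against 7.98, 7.97 and 8.11 in control cells. All Di arrays lay below all control arrays, and the log2 change was -0.46 ± 0.0832 (1.37-fold lower, limma adjusted p = 0.00677), the call at 12 h that held in all 21 alternatives. At 48 h its levels were 11.52, 11.41 and 11.40 with Di, against 8.98, 8.99 and 9.14 in control cells. All Di arrays then lay above the control arrays, by 5.29-fold (log2 change 2.40 ± 0.0832, limma adjusted p = 2.07e-09).

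KDM3A, a histone H3 lysine 9 demethylase and known HIF target, had the same opposite signs at smaller size. At 12 h its levels were 8.86, 8.43 and 8.71 with Di, against 8.99, 9.07 and 9.09 in control cells. The arrays were apart, and the log2 change was -0.38 ± 0.101 (limma adjusted p = 0.0315). Without Di array 2 it was -0.26 and no longer called (limma adjusted p = 0.0559), and 9 of 21 alternatives in all ended the call. At 48 h its levels were 9.69, 9.79 and 9.72 with Di, against 9.19, 9.35 and 9.21 in control cells. The arrays were apart again, with a log2 change of 0.48 ± 0.101 (limma adjusted p = 0.00204).

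P4HA2 encodes a catalytic subunit of collagen prolyl 4-hydroxylase, which hydroxylates proline in collagen chains. At 48 h its levels were 11.18, 11.07 and 11.13 with Di, against 9.74, 9.69 and 9.84 in control cells, 2.59-fold higher (log2 change 1.37 ± 0.067, limma adjusted p = 2.86e-08). At 12 h its levels were 9.68, 9.73 and 9.72 with Di, against 9.52, 9.64 and 9.53 in control cells. The arrays were apart at both times, but the change of 0.14 at 12 h was not called (limma adjusted p = 0.171). P4HA2 had 2 kept probe sets, and the values above are those of the named one. Over 21 alternatives its change at 12 h ran from -0.22 to 0.23 and was not called. At 48 h it ran from 1.10 to 1.42 and was called in all. P4HA1, the alternative catalytic subunit, was not called at 48 h, at 0.14 (limma adjusted p = 0.229).

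**Figure D4:**
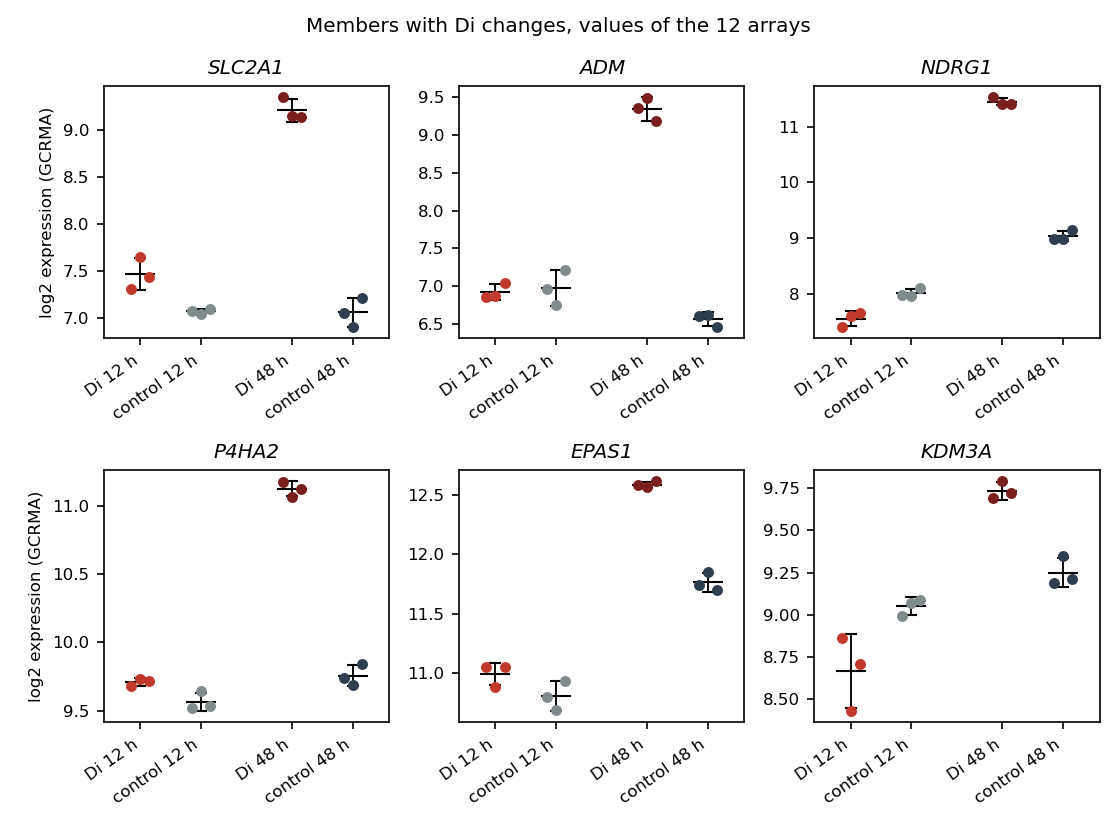
Log2 expression (GCRMA) of SLC2A1, ADM, NDRG1, P4HA2, EPAS1 and KDM3A in the 12 arrays, with Di left of control at each time; points are arrays, bars the mean and SD of 3. At 48 h the Di arrays of all 6 lie above the control arrays, and at 12 h those of NDRG1 and KDM3A lie below.

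None of the remaining hypoxia-response genes reached 2-fold with Di at 48 h on its named probe set. VEGFA, the angiogenic growth factor, averaged 11.88 ± 0.245 with Di and 11.21 ± 0.193 in control cells at 48 h (log2 change 0.67, limma adjusted p = 0.00198). Its 3 other kept probe sets gave larger changes, from 1.10 to 1.23, all called, and the mean over its probe sets gave 1.05. CA12, a membrane carbonic anhydrase, averaged 5.99 ± 0.129 with Di and 6.91 ± 0.182 in control cells and fell by 0.92 (limma adjusted p = 7.87e-05), as did its 4 other kept probe sets. MXI1, an antagonist of MYC, averaged 8.50 ± 0.113 with Di and 9.35 ± 0.0615 in control cells and fell by 0.85 (limma adjusted p = 4.04e-06). BNIP3 and BNIP3L encode mitophagy receptors. BNIP3L was called at -0.33 (limma adjusted p = 0.0117), but its other probe set, 221479_s_at, gave 0.18 and their mean gave -0.08 (limma adjusted p = 0.325). BNIP3 was not called, at 0.12, nor were ANKRD37, an ankyrin-repeat protein induced by hypoxia, at -0.26, and INSIG2, which holds back the sterol-sensing machinery in the endoplasmic reticulum, at 0.02.

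ERO1B, an oxidase of the endoplasmic reticulum that makes disulfide bonds, depended on the probe set. The named probe set, 231944_at, averaged 8.56 ± 0.106 with Di and 8.25 ± 0.146 in control cells at 48 h and was not called (log2 change 0.31, limma adjusted p = 0.391). The probe set 220012_at had 8.60, 8.63 and 8.67 with Di, against 7.41, 7.15 and 6.85 in control cells, and was called at 1.5. Across all members, 23 genes had 41 other kept probe sets. Of these, 15 were called higher and 8 lower at 48 h, and 5 higher and 1 lower at 12 h. Of all genes tested, by their named probe sets, 22.9% were higher and 28.0% lower at 48 h, and 3.90% and 9.78% at 12 h. For the members called at 48 h, 26 of 27 other kept probe sets had the sign of the named one. Of these, 18 were called in that direction and 0 in the opposite one by limma. No share over all probe sets was computed, so these counts describe agreement within genes only.

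The effect of Di differed between 48 h and 12 h for 19 of 39 members, 48.7% against 38.3% of all genes tested. It was more positive at 48 h for 12 members (30.8%, against 19.8% of all genes) and more negative for 7 (17.9%, against 18.5%). NDRG1 had the largest such difference, 2.86 on the log2 scale (limma adjusted p = 2.52e-08), followed by ADM at 2.83 and SLC2A1 at 1.75. NDRG1 and KDM3A were the members called in opposite directions at the 2 times. ENO2, whose difference of 0.67 was as large as some that were called, was not called (limma adjusted p = 0.0509). It was called in 6 of 20 alternatives, among them leaving out Di array 2 at 12 h (0.90, limma adjusted p = 0.0015).

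Control cells given the vehicle for 48 h were compared with those given it for 12 h, a difference called culture time below. Time in culture, length of exposure to the vehicle and any batch that differed between the times cannot be told apart here. These control arrays at 48 h also serve as the control for Di at 48 h, and those at 12 h for Di at 12 h, so the comparisons are not independent. Of the 39 members, 26 differed, 12 higher and 14 lower at 48 h. That is 66.7%, against 52.9% of all genes tested (21.9% higher and 31.0% lower). The majority direction reversed when arrays were centred on the median of the tested genes, to 2883 genes higher and 2713 lower and to 15 members higher and 13 lower. Of the 12 enzymes of upper and lower glycolysis, 9 were lower at 48 h and 1 higher, with a median of -0.51, against -0.061 over all genes tested. PGAM1, the mutase that precedes enolase, averaged 12.30 ± 0.0553 at 48 h and 13.16 ± 0.0428 at 12 h (log2 change -0.86, limma adjusted p = 7.22e-07). The log2 change was -0.84 for PKM, -0.69 for GPI, -0.68 for TPI1 and -0.55 for PGK1, all called lower. HK1 was 2.24-fold lower (log2 change -1.17, limma adjusted p = 5.52e-06), while HK2 was higher by 0.39 on its named probe set and by 0.07, not called, with the mean of its 3 probe sets.

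Several hypoxia-response genes were higher in control cells at 48 h. The following were chosen after their values were seen, for the size of this difference. VEGFA had 11.26, 11.37 and 11.00 at 48 h, against 9.01, 9.00 and 8.71 at 12 h, 4.94-fold higher (limma adjusted p = 2e-07). ERO1B, grouped here through the list of names, had 8.42, 8.14 and 8.20 at 48 h, against 4.60, 3.74 and 4.81 at 12 h. Its fitted difference was 14.6-fold higher (limma adjusted p = 7.07e-07). The arrays of both genes were far apart. The ERO1B mean at 12 h, 4.38, lay near the floor of 4, with the array at 3.74 under it, so the size of that fold is uncertain. ANKRD37 had 7.67, 7.28 and 7.55 at 48 h, against 6.54, 6.35 and 6.57 at 12 h, 2.02-fold higher (limma adjusted p = 1.64e-05). EGLN3 went the other way, with 2.62, 3.51 and 2.72 at 48 h, under the log2 floor of 4, against 5.15, 5.46 and 4.86 at 12 h. It was at least 2.23-fold lower, its mean at 12 h taken against that floor. Its 6 arrays above 4 were all at 12 h, so EGLN3 passed the filter only through the time at which it was higher. NDRG1 was higher by 1.02, EPAS1 by 0.95, INSIG2 by 0.75 and MXI1 by 0.68, whereas ADM was lower, at -0.42, a call lost without control array 3 at 12 h (-0.29, limma adjusted p = 0.0544) or control array 3 at 48 h (-0.36, limma adjusted p = 0.051).

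**Figure D5:**
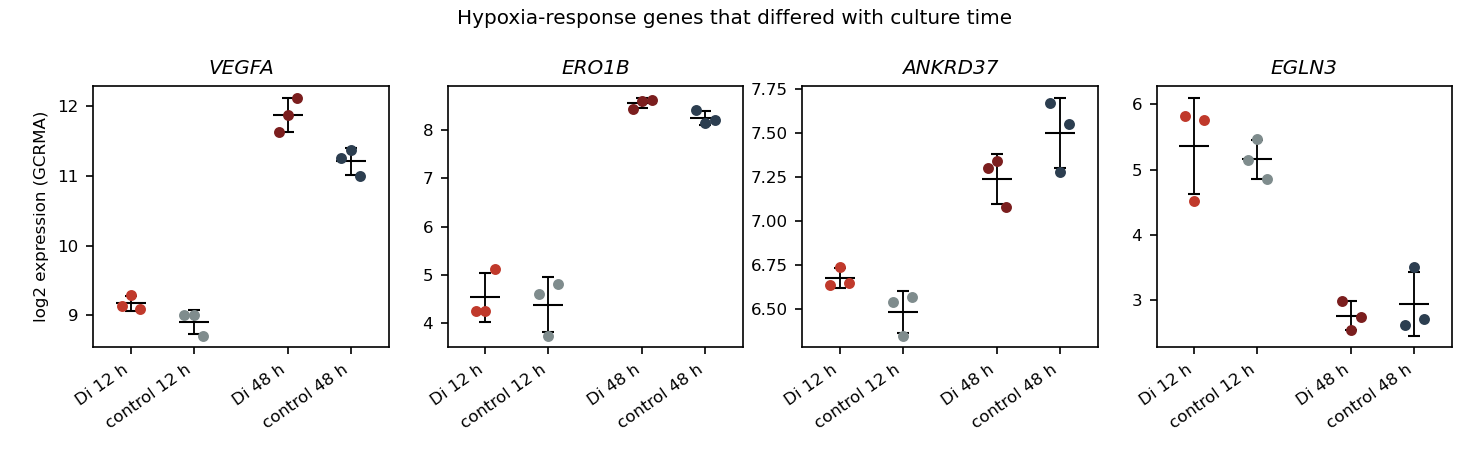
Log2 expression (GCRMA) of VEGFA, ERO1B, ANKRD37 and EGLN3 in the 12 arrays, with Di left of control at each time; points are arrays, bars the mean and SD of 3. Control cells at 48 h lie above those at 12 h for the first 3 genes and below for EGLN3.

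Set side by side, the Di effect at 48 h and the culture-time difference had different signs for some members and the same for others. ADM was 2.77 with Di and -0.42 with time, PFKP 0.95 and -0.49, PGK1 0.34 and -0.55, and PKM 0.44 and -0.84. MXI1 was -0.85 with Di and 0.68 with time, and PDK3 -0.66 and 0.32. The culture-time call of PDK3 was lost with the mean of its kept probe sets (0.18) and without control array 2 at 12 h or control array 3 at 48 h. NDRG1, EPAS1, VEGFA and HK2 were positive in both, and TPI1 and LDHA negative in both. Both columns use the control arrays at 48 h, with opposite sign, so no relation between them was computed.

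The wider pathway was described with 3 further lists. Of 41 other genes of glycolysis, gluconeogenesis, pyruvate and lactate handling, 25 were measured, and 3 rose (12.0%, against 22.9% of all genes tested) and 13 fell (52.0%, against 28.0%) at 48 h, with a median of -0.27. PDK4, the kinase of pyruvate dehydrogenase induced by fasting, fell by 2.28 (4.87-fold lower, limma adjusted p = 5.28e-09). PDP1, the phosphatase that reactivates pyruvate dehydrogenase, rose by 1.25, and MPC2, a subunit of the mitochondrial pyruvate carrier, fell by 1.11. SLC16A7, the monocarboxylate transporter MCT2, fell by 1.28. ENO3, the muscle enolase, was called at -1.25 (limma adjusted p = 0.0335), but it spread by 1.19 (SD) among the Di arrays, and without Di array 1 it was -0.57 (limma adjusted p = 0.0287). Without any 1 of the control arrays at 48 h the ENO3 call was lost. At 12 h, 1 of these genes rose and 3 fell (12.0%), against 3.90% of all genes higher and 9.78% lower.

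Of 22 genes that control HIF, 18 were measured, and 3 rose and 4 fell at 48 h, 38.9% against 50.9% of all genes tested. CITED2, which competes with HIF alpha for the coactivators CREBBP and EP300, fell by 1.13 (limma adjusted p = 7.29e-06). STAT3 fell by 0.60 and COMMD1 by 0.45, while HSP90AB1, a chaperone of HIF1A, rose by 0.39. CREBBP was called at 0.45 (limma adjusted p = 0.0221), a call lost without Di array 2 or 3 or control array 3 at 48 h and with the mean of its kept probe sets (0.15). At 12 h, 0 of the 18 rose and 2 fell, 11.1% against 13.7% of all genes. Of 40 further genes known as hypoxia-induced, 31 were measured, and 11 rose (35.5%, against 22.9% of all genes tested) and 9 fell (29.0%, against 28.0%) at 48 h, with a median of -0.14. At 12 h, 2 rose and 6 fell, 25.8% against 13.7% of all genes. STC2 (stanniocalcin 2) rose by 2.93, MAFF by 2.01 and ADORA2B, an adenosine receptor, at least 7.05-fold, its control mean lying under the floor of 4. ADORA2B averaged 6.82 with Di at 48 h and 2.39 to 2.71 in the other groups. It thus passed the filter only through the group where it was high, and it is counted among the 11 that rose. IGFBP3 was at least 2.19-fold lower, and FAM162A at least 2.05-fold lower on its named probe set, their Di means lying under the floor of 4. The change of FAM162A was smaller with the mean of its kept probe sets (-0.77) and with a floor of 6 (-0.47).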

How the data were processed

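RNA of 12 samples was hybridised to Affymetrix human arrays, and the deposited log2 expression values were made by the authors with GCRMA, per the submitters' processing notes (version not given in the sources used here). GCRMA corrects background, normalises and summarises probes, and no second normalisation was applied. Arrays have no read depth; their number limits the precision. Groups were taken from the labels. Probe sets were named through a platform gene table, with symbols updated through gene identifiers to RefSeq: 41097 had 1 symbol, 1801 several and 11777 none, and 62 control probe sets were left out. The filter on low values asked for a log2 level above 4 in 3 or more arrays and left 10626 genes. All 12 arrays were fitted with limma 3.58.1 in R 4.3.3 (1 mean per group, lmFit and eBayes), p-values were adjusted by Benjamini-Hochberg over all genes, and calls were made at an adjusted p under 0.05. The script was tested on simulated data. Probe sets of 1 gene were also tested singly, over 18957 probe sets. Where a group mean lay under the floor of 4, the fold is a lower bound against the floor. Permutation tests were made with scipy 1.17.1 and figures with matplotlib 3.10.9.

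The members and lists were chosen with earlier results of these data known. Values per array are given for members called at 12 h, for members called at 48 h with a change of at least 1 (log2), and for HK2, HIF1A and EPAS1. Of each further list at most the 5 called genes with the largest change at 48 h are named. Alternatives covered the filter, a floor of 6, the moderation, the scaling, the mean of all kept probe sets, a replicate block, fewer arrays and leaving out each array. The labels do not say that replicates were separate cultures beyond the word biological, so p-values measure the spread between these arrays.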

Additional observations from a re-analysis of the deposited data

Results flagged for a closer look

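For 19 members the effect of Di differed between 48 h and 12 h by a test of the difference itself (limma, adjusted p under 0.05 over all genes). Each value is the log2 change at 48 h minus that at 12 h, and 38.3% of all genes tested had such a difference. Among glucose uptake and glycolysis the difference was 1.75 for SLC2A1, 0.86 for SLC2A3, 0.97 for HK2, 1.06 for PFKP, 0.33 for PGK1, 0.52 for PKM and -0.44 for TPI1. At the fate of pyruvate it was 0.88 for PDK1, -0.55 for PDK3, -0.50 for LDHA and -0.34 for LDHB. Among the hypoxia genes it was 2.86 for NDRG1, 2.83 for ADM, 1.23 for P4HA2, 0.86 for KDM3A, 0.64 for EPAS1, -0.45 for ANKRD37, -0.64 for CA12 and -0.71 for MXI1. The difference of ANKRD37 (limma adjusted p = 0.0388) came with changes of 0.19 at 12 h and -0.26 at 48 h, neither of them called, and it was lost in 11 of 20 alternatives, among them no filter, quantile normalisation, the replicate block and 8 fits that left out 1 array (any Di array or control array 1 or 2 at 12 h, Di array 3 or control array 1 or 3 at 48 h). With the mean of all kept probe sets, the difference was no longer called for PDK1 (0.38, limma adjusted p = 0.12), TPI1 (-0.31, limma adjusted p = 0.0869) or EPAS1 (0.47, limma adjusted p = 0.085), and with median centring it was not for PGK1 (0.30, limma adjusted p = 0.0755).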

How the results depend on the processing

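At 48 h 19 of the 22 called members were called in every alternative run, the exceptions being ENO2, PFKM and BNIP3L, and at 12 h 1 of 4 was, NDRG1. For the difference between the times 14 of 19 were, and for culture time 18 of 26. Leaving out 1 array at a time gave 745 to 1457 genes called at 12 h, with 745 without control array 2 and 778 without control array 3, and 1 to 4 members, 4735 to 5900 genes and 20 to 25 members at 48 h, 3555 to 4418 genes and 18 to 20 members for the difference between the times, and 4848 to 6155 genes and 21 to 30 members for culture time. At 12 h, using only the arrays of that comparison gave 575 genes in place of 1453 and 1 member in place of 4. Members called at 12 h were 2 with no filter, 2 with median centring and 1 with a replicate block. Centring on the median of the tested genes, chosen after seeing the data, made 735 of 1353 calls at 12 h higher, 54.3% in place of 28.5%, and gave 51.5% in place of 41.3% for culture time. With the mean of all kept probe sets, culture time turned to 0.58 for PDK1 (limma adjusted p = 0.00276), to -0.08 for P4HA2 and to 0.17 for HSP90AB1, and with a floor of 6 to -0.25 for FAM162A, and the cause was not tested. Replicate numbers gave no sign of pairing. Correlations of deviations from the group means ran from -0.264 to 0.154 for same-numbered arrays and from -0.307 to 0.292 for the others. With 3 arrays a group, these values cannot exclude pairing. The replicate block gave 1003 genes at 12 h, 5076 genes and 21 members at 48 h, 3645 genes and 18 members for the difference, and 5257 genes and 24 members for culture time. Among values not called, the sign differed from the reported one in 38 cases at 12 h, 10 at 48 h, 18 for the difference and 11 for culture time. Probe sets near the floor of 4, such as those of EGLN3, have only a bound.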
